A study of Homo sapiens with 36 samples.

Results

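TRAP-1-NegP was compared with its vehicle after 4 h in BxPC-3 cells, an established human pancreatic adenocarcinoma line. The comparison takes 6 of the 36 libraries of the series: the 3 of cells given 3 µM TRAP-1-NegP for 4 h and the 3 of cells given DMSO for 4 h. All 14988 genes that passed a count filter, of 29744 in the table, are its members. The same compound and vehicle after 2 h (3 libraries each) and 3 other compounds at 3 µM for 4 h (JQ1, TRAP1 and TRAP-1-NegB, 3 libraries each) were used to show where this response differed. Cells of every group were of the 1 line, labelled WT with no engineered allele, grown in the same serum-containing medium. TRAP1 is here the compound of that name, for which the series is named, and JQ1 blocks the bromodomains of the BET proteins, among them BRD2 and BRD3; the labels do not say what the suffixes NegP and NegB stand for. Polyadenylated RNA was sequenced, and the labels number the replicates without saying whether they were separate cultures, so the p-values measure a spread between libraries that may be technical.

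Total estimated counts lay between 15288688 and 26608325 over all libraries, and between 18063430 and 24395217 in the 6 compared. Levels are given in CPM, estimated counts scaled to a common library total that was adjusted by TMM factors, and changes as log2 fold changes, positive where TRAP-1-NegP was higher, with their SE from the fit. A gene was called at an edgeR quasi-likelihood p under 0.05 after Benjamini-Hochberg adjustment over all 14988 genes, and "rose" or "fell" refers to called genes. On the first principal component the TRAP-1-NegP libraries of 4 h lay between 26.7 and 30.6 and the DMSO libraries of 4 h between −22.9 and −20.3. Epithelial and ductal markers were present, with 20 of 28 above 1 TPM (transcript abundance scaled by length and library total), while the ductal transcription factor gene ONECUT1 was at 0 in all 6 libraries. Of markers of other cells, 6 of 19 mesenchymal, 4 of 14 haematopoietic or endothelial and 0 of 9 acinar or islet genes exceeded 1 TPM. Summed mesenchymal markers lay at 57.9 to 61.8 TPM with TRAP-1-NegP and 59.6 to 73.2 TPM with DMSO. The first TRAP1 library of 4 h stood apart from its group on the second component, so values against TRAP1 are given with and without it.

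Sterol synthesis in human cells is governed by SREBP transcription factors, which are held in the endoplasmic reticulum by INSIG proteins while sterol is plentiful and move to the nucleus to switch on the enzymes when it is not. BET proteins bind acetylated chromatin and recruit the kinase complex P-TEFb, which releases paused RNA polymerase II; cells answer BET inhibition by raising a characteristic set of transcripts, among them the P-TEFb inhibitor gene HEXIM1 and several histone genes. DNA damage and other stresses switch on arrest and death genes such as CDKN1A, and the unfolded protein response raises chaperones of the endoplasmic reticulum. Genes of these programmes are described first, after the largest single changes, and then growth, inflammatory and lineage genes.

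Upstream promoter sequence is shown for genes of 3 groups that rose together. A CCAAT box, the site of the factor NF-Y, was in most windows of several lists that rose, though not of all. Each sequence is the 250 bases before the gene's start in RefSeq, build GRCh38.p14, printed 5′ to 3′ on the strand of the gene, with every CCAAT, or its reverse complement ATTGG, in capitals. They are the sterol genes INSIG1 (chr7:155297628-155297877, plus strand), HMGCS1 (chr5:43313413-43313662, minus strand) and TM7SF2 (chr11:65111622-65111871, plus strand), the chaperone gene HSPA5 (chr9:125241344-125241593, minus strand), the stress protein gene HERPUD1 (chr16:56931892-56932141, plus strand) and the histone gene HIST2H2BE (chr1:149886683-149886932, minus strand).
INSIG1: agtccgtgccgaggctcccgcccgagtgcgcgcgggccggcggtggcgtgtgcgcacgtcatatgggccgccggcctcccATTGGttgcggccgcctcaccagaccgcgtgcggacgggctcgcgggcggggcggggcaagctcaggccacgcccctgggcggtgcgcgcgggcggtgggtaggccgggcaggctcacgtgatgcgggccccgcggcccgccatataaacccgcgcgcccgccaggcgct
HMGCS1: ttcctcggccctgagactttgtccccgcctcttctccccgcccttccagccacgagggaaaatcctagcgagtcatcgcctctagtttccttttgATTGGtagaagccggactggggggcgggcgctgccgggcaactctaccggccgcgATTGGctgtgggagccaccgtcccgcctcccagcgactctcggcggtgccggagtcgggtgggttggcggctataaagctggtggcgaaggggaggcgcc
TM7SF2: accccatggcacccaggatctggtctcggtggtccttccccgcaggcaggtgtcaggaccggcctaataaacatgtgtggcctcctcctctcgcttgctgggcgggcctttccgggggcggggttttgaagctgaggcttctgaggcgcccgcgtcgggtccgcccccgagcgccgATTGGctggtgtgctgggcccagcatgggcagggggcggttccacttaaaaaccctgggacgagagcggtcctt
HSPA5: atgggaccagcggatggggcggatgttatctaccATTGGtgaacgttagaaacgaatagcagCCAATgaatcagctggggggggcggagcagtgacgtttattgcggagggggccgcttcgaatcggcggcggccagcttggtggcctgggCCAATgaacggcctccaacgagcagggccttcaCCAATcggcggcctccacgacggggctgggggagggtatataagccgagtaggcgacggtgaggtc
HERPUD1: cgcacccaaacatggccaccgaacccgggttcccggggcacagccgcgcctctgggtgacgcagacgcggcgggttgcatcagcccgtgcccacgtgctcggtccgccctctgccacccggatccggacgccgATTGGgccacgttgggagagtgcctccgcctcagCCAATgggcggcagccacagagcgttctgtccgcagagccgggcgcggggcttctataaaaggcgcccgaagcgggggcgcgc
HIST2H2BE: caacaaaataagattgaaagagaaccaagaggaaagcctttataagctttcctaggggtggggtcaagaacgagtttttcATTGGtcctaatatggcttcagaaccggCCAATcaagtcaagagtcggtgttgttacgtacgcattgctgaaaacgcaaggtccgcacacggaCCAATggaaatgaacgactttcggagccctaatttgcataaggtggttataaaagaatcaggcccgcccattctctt
HSPA5 had 4 boxes, HIST2H2BE 3, HMGCS1 and HERPUD1 2 each, and INSIG1 and TM7SF2 1 each.

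A window of 300 bases, 250 before and 50 after the start, was available for 11393 tested genes (76.0%). On either strand, CCAAT was in 43.2% of windows of genes that rose, 31.0% of those of genes that fell and 36.7% of all tested. By list it was in 23 of 26 windows (88.5%) of unfolded protein response genes, 21 of 25 (84.0%) of histone genes, 12 of 16 (75.0%) of cholesterol synthesis genes and 11 of 16 (68.8%) of genes known to rise with BET inhibitors. Ribosomal protein genes, at 33.9%, and heat shock genes, at 29.2%, were near or below the share of all tested genes. The endoplasmic reticulum stress element, CCAAT followed by any 9 bases and CCACG, which contains a CCAAT box, was in 6 of 26 unfolded protein response windows (23.1%) and in 0.123% of those tested. The heat shock element, GAA, TTC and GAA with any 2 bases between each, was in 5 of 24 heat shock windows (20.8%) and in 0.307% of those tested. The sterol element TCACNCCAC was in 1 of 13 windows of sterol sensing and uptake genes (7.69%), in 0 of 16 cholesterol synthesis windows and in 1.11% of those tested. A match describes the letters of the window only.

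With TRAP-1-NegP, 2781 genes (18.6% of those tested) rose and 2827 (18.9%) fell, 489 and 768 of them by at least 2-fold (8.39% of tested genes together). The median over all tested genes was −0.01. All 3 libraries of 1 group lay above all 3 of the other in 47.1% of tested genes.

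Among genes with a mean of at least 5 CPM and groups that did not overlap, the largest rise was of INSIG1 (chromosome 7, 155297776 to 155310235, build GRCh38), which encodes a sterol-dependent anchor of SREBP. It was measured at 362, 396 and 369 CPM with TRAP-1-NegP, against 24.7, 26.9 and 23.3 CPM with DMSO, a change of 3.91 ± 0.081 (adjusted p = 2.8e-41). The libraries of a group lay close together and the groups far apart. FAM46C, a poly(A) polymerase gene, stood at 21.9, 24.6 and 23.5 CPM with TRAP-1-NegP and at 1.58, 2.35 and 2.25 CPM with DMSO (3.50 ± 0.29, adjusted p = 2.2e-12). HIST2H2BE, a histone H2B gene with a polyadenylated transcript, had 52.3, 48.8 and 51.1 CPM in treated and 5.18, 6.29 and 4.88 CPM in vehicle libraries (3.22 ± 0.19, adjusted p = 4.2e-18). Neither gene had overlapping groups. The others of the 15 largest rises were BFSP1 (3.19), TMED7-TICAM2 (3.14), RP11-362F19.1 (3.07), FAM222A (2.99), SERPINI1 (2.93), DPYSL3 (2.89), TM7SF2 (2.81), HIST1H2BC (2.60), ZCCHC24 (2.60), LOC93622 (2.59), HES6 (2.53) and SERTAD1 (2.50). BFSP1 encodes a filament protein of the lens, SERPINI1 the protease inhibitor neuroserpin, DPYSL3 a cytoskeletal protein of growing neurons and HES6 a helix-loop-helix factor. TMED7-TICAM2 is a readthrough transcript that shares exons with its neighbours, so its reads cannot be assigned with certainty.

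HAS2 (chromosome 8, 121612116 to 121641390), the synthase of high-molecular-weight hyaluronan, fell the most of these genes. Its level was 3.32, 0.581 and 0.843 CPM with TRAP-1-NegP and 47.7, 41.3 and 39.2 CPM with DMSO, a change of −4.75 ± 0.29 (adjusted p = 1.8e-13). Every treated library lay far below every vehicle library, though the treated libraries differed among themselves, with replicate 1 the highest. The next falls were SH3TC1 (−2.93), B3GNT7 (−2.80), ALKBH4 (−2.56), PRICKLE1 (−2.50), GIMAP6 (−2.47), OVOL2 (−2.45), ZFP64 (−2.40), ANKRD65 (−2.40), AMIGO2 (−2.35), FAM83C (−2.34), STAMBPL1 (−2.32), ZNF618 (−2.30), TFAP4 (−2.29) and ZMYND8 (−2.26). B3GNT7, a glycosyltransferase gene, stood at 4.27, 5.81 and 4.87 CPM with TRAP-1-NegP and 36.9, 34.4 and 32.9 CPM with DMSO. PRICKLE1 encodes a planar cell polarity protein, OVOL2 an epithelial zinc finger factor, AMIGO2 an adhesion protein, TFAP4 a helix-loop-helix factor and ZMYND8 a reader of acetylated histones. Since the RNA came from whole cultures, fewer cells with a transcript and less of it per cell cannot be told apart.

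**Figure D1:**
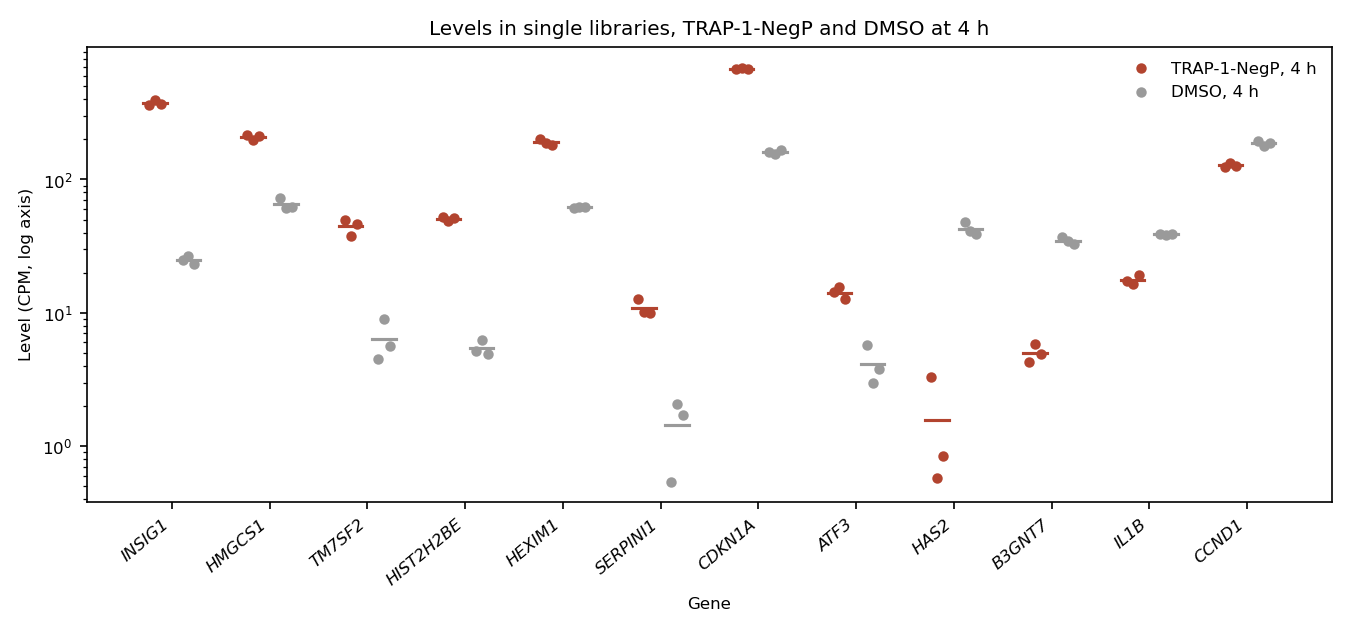
Levels of 12 genes in single libraries, in CPM on a log axis, with TRAP-1-NegP at 4 h on the left of each pair and DMSO at 4 h on the right; points are libraries and bars the means of 3. INSIG1 and HIST2H2BE lie far above their DMSO libraries, and HAS2, B3GNT7, IL1B and CCND1 lie below theirs.

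Sterol sensing and uptake genes rose in 12 of 21 tested members, 57.1% against 18.6% of all genes, and fell in 3 (median 0.28). MYLIP (1.18), a ubiquitin ligase gene, STARD4 (1.17), a sterol carrier, and NPC1 (1.01), the lysosomal cholesterol exporter, rose. The falls were UBXN8 (−1.09), INSIG2 (−0.59) and MBTPS1 (−0.27), where INSIG2 is the second SREBP anchor and MBTPS1 the protease that first cuts SREBP. The call of INSIG2 was lost without TRAP-1-NegP replicate 1 (adjusted p = 0.060). INSIG1 and INSIG2, which encode proteins of the same function, thus moved apart: INSIG2 was at 11.3 ± 2.21 CPM with TRAP-1-NegP and 17 ± 1.19 CPM with DMSO (SD, n = 3 each).

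Of the enzymes of cholesterol synthesis, 17 of 21 rose (81.0%), 1 fell and the median was 0.84. HMGCS1, the synthase that makes HMG-CoA at the head of the pathway, had 217, 197 and 214 CPM in TRAP-1-NegP libraries and 72.9, 60.8 and 61.9 CPM in DMSO libraries (1.68 ± 0.081, adjusted p = 2.3e-24). IDI1 (2.23), which isomerises the isoprenoid building block, and FDFT1 (1.14), the first committed step towards sterols, rose as well. TM7SF2, a sterol reductase, rose the most of the enzymes, with 50.1, 37.9 and 46.0 CPM in treated and 4.54, 8.96 and 5.61 CPM in vehicle libraries (2.81 ± 0.18). PMVK, the mevalonate phosphate kinase, was the enzyme that fell (−0.47), and its call was lost without TRAP-1-NegP replicate 2 or DMSO replicate 3 (adjusted p up to 0.058). FDPS (0.08), LBR (−0.11) and HSD17B7 (0.44) did not pass the test. Of the 16 genes for making and desaturating fatty acids, 8 rose and 2 fell (median 0.53), with ELOVL7 (1.62), SCD (1.27), FASN (1.19), ACSS2 (0.77), ACLY (0.74) and ACSL3 (0.63) up, FASN being the fatty acid synthase and SCD the main desaturase. The falls were ELOVL6 (−0.82) and GPAM (−0.54), and the call of GPAM was lost without TRAP-1-NegP replicate 1 (adjusted p = 0.10). Among 10 genes of sterol efflux and of the sterol-activated receptor LXR, 1 rose and 2 fell, and the cholesterol exporter ABCA1 was lower at 8.17 ± 0.902 CPM with TRAP-1-NegP and 15.3 ± 1.61 CPM with DMSO (−0.90 ± 0.19).

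Genes known to rise with BET inhibitors rose in 17 of 19 tested members (89.5% against 18.6% of all genes) and fell in 0, with a median of 1.57. This list, like the others, was chosen with earlier results of these data known, so its count is a description. HEXIM1, which holds P-TEFb inactive, stood at 203, 188 and 183 CPM with TRAP-1-NegP and 61.6, 62.5 and 62.4 CPM with DMSO (1.62 ± 0.083, adjusted p = 3.3e-23). SERPINI1 had 12.7, 10.1 and 10.1 CPM in treated and 0.543, 2.08 and 1.71 CPM in vehicle libraries (2.93 ± 0.32). Both genes had groups that did not overlap, with a wider relative spread in SERPINI1 at its low level. BRD2 itself rose (1.67 ± 0.049), at 626 ± 12.4 CPM with TRAP-1-NegP and 197 ± 3.12 CPM with DMSO. BRD3 rose by less (0.52 ± 0.12, adjusted p = 4.0e-04). Other members that rose were ZCCHC24 (2.60), TXNIP (1.57), SAT1 (1.5), MAP1LC3B (1.12) and SQSTM1 (0.80); TXNIP encodes the thioredoxin inhibitor, SAT1 a polyamine-degrading enzyme and SQSTM1 the autophagy receptor p62.

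Histone genes gave 17 rises and 0 falls among 29 (median 1.28). Beside HIST2H2BE, the H2B genes HIST1H2BC (2.60) and HIST1H2BK (1.33) rose, as did the linker histones H1F0 (1.22) and H1FX (1.32), the variant H2AFJ (1.28) and H3F3B (0.87), a gene of the replication-independent histone H3.3. HIST1H2BC was at 9.29, 12.4 and 9.75 CPM with TRAP-1-NegP and 1.28, 1.86 and 2.05 CPM with DMSO, without overlap. Most clustered histone transcripts lack a poly(A) tail and their sequences are nearly identical, so polyA-selected counts of a single copy are uncertain. Among the P-TEFb complex, its 7SK partner proteins and the elongation factors, 13 of 27 rose and 5 fell. The rises included POLR2A (1.49), the largest subunit of RNA polymerase II, the 7SK capping enzyme gene MEPCE (0.71), the P-TEFb cyclin gene CCNT1 (0.69) and the super elongation complex genes AFF4 (0.94) and ELL2 (0.66). The pausing factor genes NELFA (−0.86) and NELFB (−0.37) fell. MS78 is another compound of the series. Without the first libraries of TRAP1 at 4 h and MS78 at 2 h, 8 members of this list fell in place of 5.

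Genes that DNA damage and other stresses can switch on, here called genes of the DNA damage response, were split by role. Of the arrest genes, 10 of 13 rose and 1 fell (median 0.74). CDKN1A (chromosome 6, 36676460 to 36687339), the gene of the cyclin-dependent kinase inhibitor p21, stood at 674, 689 and 674 CPM with TRAP-1-NegP and 161, 156 and 166 CPM with DMSO, a change of 2.08 ± 0.050 (adjusted p = 5.1e-38). Its replicates differed by little within each group. SESN2 (1.58), a restrainer of mTOR signalling, PLK3 (1.42), a stress kinase, and the antiproliferative genes BTG1 (1.10), TOB1 (0.96) and BTG2 (0.66) rose too. Of 19 death genes, 5 rose (26.3%) and 3 fell (15.8%), near the 18.6% and 18.9% of all genes. The decoy receptor gene TNFRSF10D (2.06), the death receptor gene TNFRSF10B (0.65) and the BH3-only gene PMAIP1 (1.12) rose. FAS (−0.80 ± 0.21), the nuclease gene AEN (−0.73) and PHLDA3 (−0.67) fell. BBC3, another BH3-only gene, was called at 0.97 ± 0.33 (adjusted p = 0.014), and the call was lost without TRAP-1-NegP replicate 3 or DMSO replicate 1 (adjusted p up to 0.11).

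The remaining damage response genes, of feedback, repair and metabolism, gave 15 rises and 6 falls among 35. MDM2, a ubiquitin ligase gene induced by DNA damage, was lower at 22.1, 22.3 and 23.6 CPM with TRAP-1-NegP and 41.5, 34.3 and 40.4 CPM with DMSO (−0.77 ± 0.12, adjusted p = 5.4e-07). None of its treated libraries reached a vehicle library. GDF15, a secreted stress cytokine, stood at 17, 20.2 and 16.9 CPM with TRAP-1-NegP and 12.4, 16.5 and 14.9 CPM with DMSO, a difference of 0.31 ± 0.16 that did not pass (adjusted p = 0.13) except with no count filter (adjusted p = 0.044). TP53INP1, a stress protein gene, had 2.36, 1.56 and 1.86 CPM in treated and 0.641, 1.48 and 2.34 CPM in vehicle libraries (0.37 ± 0.36, adjusted p = 0.46), with overlapping groups. SERTAD1 (2.50), a cyclin-dependent kinase regulator, POLH (1.21), the translesion polymerase gene, NOTCH1 (1.19) and EPHA2 (0.80) rose, and the cytokine gene LIF (−1.61) and the autophagy gene DRAM1 (−0.85) fell. Thus CDKN1A and MDM2 moved in opposite directions.

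**Figure D2:**
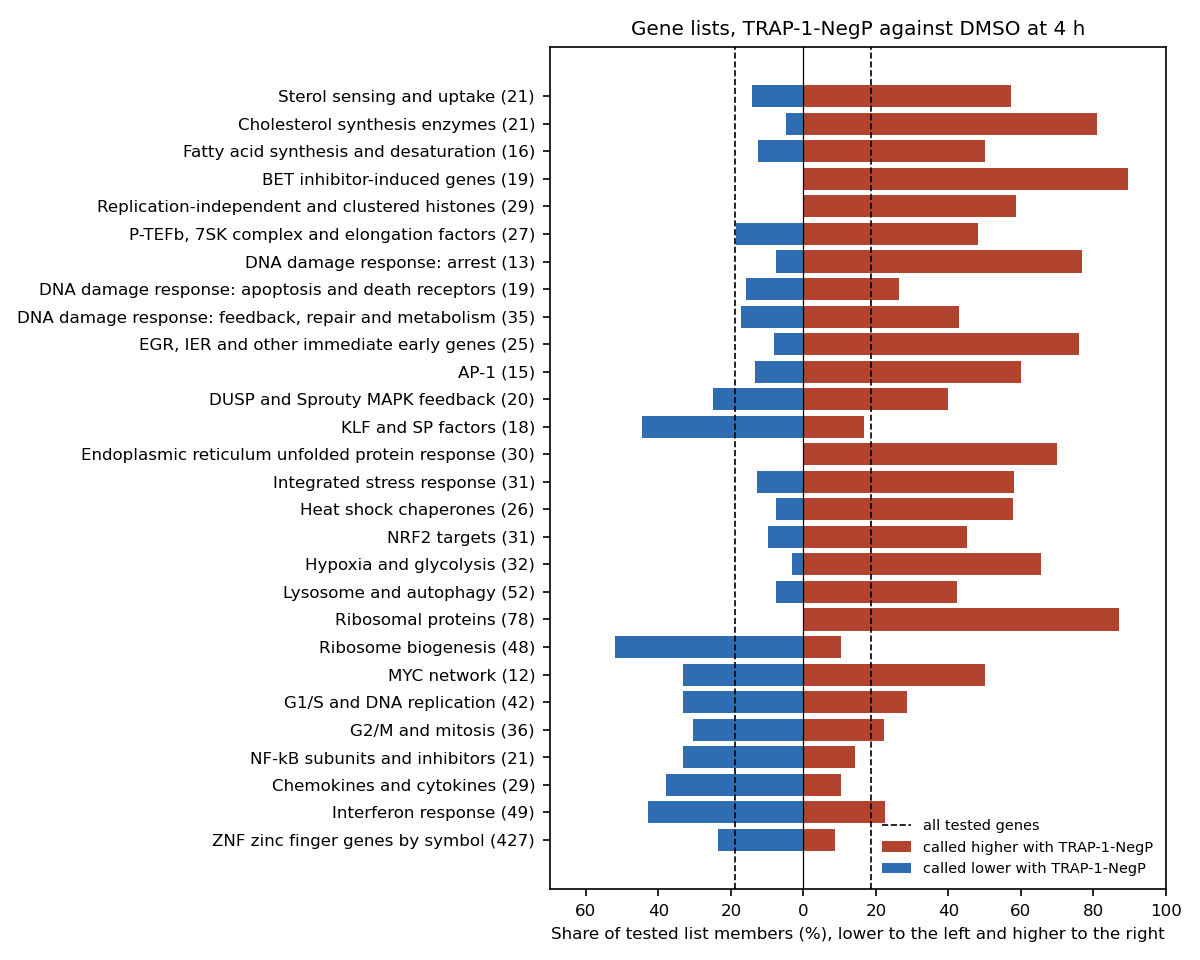
Share of tested members of 28 gene lists called with TRAP-1-NegP against DMSO at 4 h, in percent, with rises to the right and falls to the left; the number tested is beside each name and dashed lines mark 18.6% and 18.9% of all genes. Rises exceed the dashed line most for BET inhibitor-induced, ribosomal protein and cholesterol synthesis genes, and falls for ribosome biogenesis genes.

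Immediate early genes, which respond to growth and stress signals without new protein synthesis, rose in 19 of 25 (76.0%) and fell in 2 (median 0.90). EGR1, a zinc finger factor, stood at 36.6, 38.9 and 46.1 CPM with TRAP-1-NegP and 10.4, 12.9 and 15.1 CPM with DMSO (1.66 ± 0.12), without overlap. CSRNP1 (1.74), the GTPase gene RHOB (0.97) and the survival gene MCL1 (0.80) rose with it. AP-1 subunit genes gave 9 rises and 2 falls among 15, with JUND (1.79), ATF3 (1.77), FOS (1.26) and JUN (0.86) up and BATF down (−1.09). Feedback genes of MAPK signalling were split, 8 up and 5 down of 20: the phosphatase genes DUSP14 (1.57), DUSP1 (1.34) and DUSP5 (0.75) and the inhibitor gene SPRY4 (1.09) rose, and SPRY1 (−1.62) and DUSP4 (−0.67) fell. Of the KLF and SP factor genes, 3 of 18 rose, KLF2 (1.93) and KLF4 (0.84) among them, and 8 fell (44.4%), including KLF7 (−1.0), SP2 (−0.96) and KLF13 (−0.88).

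Feedback genes of the BMP and TGF-beta pathways gave 10 rises and 7 falls among 26. VASN (2.50), which binds and traps TGF-beta, BAMBI (2.32), a decoy receptor, ID3 (1.92), a helix-loop-helix repressor induced by BMP, and the SMAD repressor genes SKI (1.24) and SMAD7 (0.67) rose. The receptor gene TGFBR2 fell (−0.82) and TGFBR1 rose (0.56). Targets of YAP and TEAD were mixed, 11 up and 7 down of 26. The matricellular genes CTGF (2.21) and CYR61 (1.16) rose, and ANKRD1 (−1.07), FJX1 (−1.06) and the tissue factor gene F3 (−0.95) fell. In the Notch list, 8 of 21 rose and 3 fell. NRARP (2.17), a feedback inhibitor, and HES2 (1.36) were up while the effector gene HEY1 was down (−2.0), at 5.41 ± 0.693 CPM with TRAP-1-NegP and 21.8 ± 1.38 CPM with DMSO (SD, n = 3 each).

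Genes of the unfolded protein response of the endoplasmic reticulum rose in 21 of 30 (70.0%) and fell in 0 (median 0.38). HSPA5, the main chaperone of this compartment, stood at 1581, 1586 and 1610.0 CPM with TRAP-1-NegP and 848, 829.6 and 801 CPM with DMSO (0.95 ± 0.042, adjusted p = 5.2e-26). HERPUD1, which serves the degradation of misfolded proteins there, had 92.5, 107 and 93.7 CPM in treated and 36.7, 40.3 and 34.7 CPM in vehicle libraries (1.40 ± 0.086). In neither gene did the groups overlap. The sensor kinase gene ERN1 (1.73), the chaperone genes HSP90B1 (0.57) and CALR (0.49) and the disulfide isomerase gene PDIA4 (0.41) rose as well. Integrated stress response genes gave 18 rises and 4 falls among 31. Its central factor gene ATF4 (0.68), ATF5 (0.86), the phosphatase regulator gene PPP1R15A (1.07) and the folate enzyme gene MTHFD2 (0.91) rose. TRIB3 (−1.28), a pseudokinase gene induced by ATF4, and the cystine transporter gene SLC7A11 (−0.69) fell.

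Cytosolic heat shock chaperone genes rose in 15 of 26 and fell in 2. DNAJB1 (1.36), the co-chaperone BAG3 (0.81), HSPA8 (0.80) and HSP90AA1 (0.62) were up, and so was HSPA1B (1.19), whose reads are hard to tell from those of its twin HSPA1A. Targets of the antioxidant factor NRF2 gave 14 rises and 3 falls among 31, with EPHX1 (1.36), GCLC (1.04), the rate-limiting enzyme of glutathione synthesis, and SRXN1 (0.69) up and KEAP1, the repressor of NRF2, down (−0.80). Hypoxia and glycolysis genes rose in 21 of 32 (65.6%), led by ALDOC (1.51), ADM (1.29) and PFKFB3 (0.98), and 1 fell, the glucose transporter gene SLC2A1 (−0.32). In the lysosome and autophagy list 22 of 52 rose and 4 fell. ATG2A (1.47), the sialidase gene NEU1 (1.40) and the autophagy kinase gene ULK1 (0.96) rose, while TFEB, a transcription factor of lysosomal genes, fell to 0.324 ± 0.227 CPM with TRAP-1-NegP, against 2.25 ± 0.621 CPM with DMSO (−2.75 ± 0.64).

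Ribosomal proteins and the factors that assemble ribosomes moved apart. Of 78 ribosomal protein genes, 68 rose (87.2%) and 0 fell, each by a small amount: the median was 0.24, and the members named by the smallest p-values were RPLP0 (0.49), RPL12 (0.47), RPL10A (0.40), RPS26 (0.38) and RPS20 (0.35). RPLP0 had 7224, 7249 and 7111 CPM with TRAP-1-NegP and 4968, 5220.0 and 5226 CPM with DMSO. Calls depended on level: in the group of protein-coding genes with the highest mean levels, 43.0% rose and 15.4% fell. Over the alternatives of processing, 60 to 75 of these genes rose and 0 fell. Many processed pseudogenes share their sequences, so their counts are uncertain. Of 48 ribosome biogenesis genes, 5 rose and 25 fell (52.1% against 18.9% of all genes; median −0.22). RRS1 (−1.09), the snoRNP protein gene GAR1 (−1.05), PPAN (−0.98), the RNA polymerase I subunit gene POLR1B (−0.72) and TCOF1 (−0.51) fell. GAR1 stood at 11.7, 12 and 11.7 CPM with TRAP-1-NegP and 25.5, 24.1 and 24.0 CPM with DMSO, without overlap. Abundant nucleolar proteins were among the rises, with NPM1 (0.38), NOP56 (0.35), NOLC1 (0.33) and NCL (0.30).

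MYC, the factor that drives ribosome production and growth, fell to 74.7, 66.4 and 79.7 CPM with TRAP-1-NegP, against 111, 107 and 104 CPM with DMSO (−0.55 ± 0.076, adjusted p = 3.2e-08). Of its network of partners and antagonists, 6 of 12 rose and 4 fell. The MYC antagonist gene MXD1 (0.99) and MXD4 (0.56) rose, and the antagonist genes MNT (−0.98) and MGA (−0.65) fell. The median of this list (0.19) changed sign with a stricter count filter or with only the compared groups fitted (−0.19 in both). MLXIPL, the gene of a glucose-responsive partner of this network, is not given a fold because its DMSO libraries were at 0.

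Cell cycle genes changed in both directions, where 18.6% of all genes rose and 18.9% fell. Of 42 G1/S and replication genes, 12 rose (28.6%) and 14 fell (33.3%). The cyclin gene CCNE1 (1.18), the histone mRNA-binding protein gene SLBP (0.99), CDC6 (0.74) and RRM2 (0.70) were up, and E2F2 (−1.12), the primase gene PRIM1 (−1.03) and GINS1 (−0.72) were down. Of 36 G2/M genes, 8 rose (22.2%, near the share of all genes) and 11 fell (30.6%), or 10 and 7 without DMSO replicate 1. The mitotic kinase gene PLK1 (−0.61), BUB1B (−0.77), PRC1 (−0.51) and FOXM1 (−0.46), a factor that switches on mitotic genes, fell, whereas the securin gene PTTG1 (0.54) and CDK1 (0.38) rose. CCND1, the gene of cyclin D1, was lower at 125, 132 and 127 CPM with TRAP-1-NegP and 194, 179 and 188 CPM with DMSO (−0.55 ± 0.059, adjusted p = 3.1e-11), without overlap. Among CDK inhibitors CDKN2D (1.13) and CDKN1B (0.48) rose beside CDKN1A.

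Inflammatory genes mostly fell where they changed. Of 29 chemokine and cytokine genes, 3 rose and 11 fell (37.9%; median −0.51). IL1B, a central inflammatory cytokine gene, stood at 17.2, 16.4 and 19.3 CPM with TRAP-1-NegP and 39.1, 38.0 and 38.9 CPM with DMSO (−1.14 ± 0.11, adjusted p = 3.2e-13). IL1A (−0.68), its natural antagonist IL1RN (−0.79), TGFB2 (−1.37), LIF (−1.61) and the death ligand gene TNFSF10 (−0.82) fell with it. The rises were TNFSF9 (2.30), the ligand of 4-1BB, IL11 (1.95) and TGFB1 (0.76). NF-kB pathway genes gave 3 rises and 7 falls among 21. TRAF1 (−1.73), BCL3 (−1.69), the kinase gene IKBKE (−1.28) and TRAF2 (−0.87) fell, and the superoxide dismutase gene SOD2 (0.84) and the inhibitor genes NFKBIE (0.72) and NFKBIZ (0.52) rose.

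Interferon response genes gave 11 rises and 21 falls among 49 (median −0.23). The rises (22.4%) were near the 18.6% of all genes, and the falls (42.9%) were above the 18.9% of all genes. DTX3L (−1.22), IFI44L (−1.12), IFI44 (−0.81), OAS2 (−0.71) and IRF9 (−0.72), the DNA-binding subunit of the interferon-activated factor, fell. Its partner gene STAT2 (0.67) and the effectors IFIT2 (1.08) and ISG15 (0.78) rose. IFI44 stood at 31.3 ± 2.13 CPM with TRAP-1-NegP and 54.7 ± 5.18 CPM with DMSO, and IFIT2 at 66.6 ± 2.77 CPM with TRAP-1-NegP and 31.4 ± 2.35 CPM with DMSO (SD, n = 3 each). Single members thus went both ways, but only the share of falls stood out from that of all genes.

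Of 11 hyaluronan genes, HAS2 among them, 5 rose and 1 fell. They included TMEM2 (1.51), a cell-surface hyaluronidase, and the receptor CD44 (0.29). The BCL2 family gave 7 rises and 6 falls among 20, or 3 and 6 without DMSO replicate 1. The proapoptotic gene BCL2L11 (1.96) rose, and the prosurvival genes BCL2L1 (−0.77) and BCL2L2 (−0.61) and the proapoptotic BAK1 (−0.43) and BOK (−0.46) fell. EGFR ligand genes AREG (0.82) and HBEGF (0.80) rose and NRG1 (−1.31) fell, in a list with 4 rises and 4 falls among 15 (26.7% each). Of 11 RGS genes, whose products end G-protein signals, 1 rose and 4 fell, among them RGS4 (−1.0). In the circadian clock, 5 of 21 rose, PER1 (1.53) the most of those named, and 6 fell, with the core factor gene CLOCK (−0.97) and its repressor BHLHE41 (−1.35). Aryl hydrocarbon receptor genes gave 4 rises and 1 fall among 9: TIPARP (1.02) rose and CYP1B1 (−1.39) fell.

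In the ductal and epithelial list 11 of 25 rose and 4 fell, with OVOL1 (1.24), the tight junction gene CLDN4 (0.73) and E-cadherin CDH1 (0.58) up and FOXA2 (−1.04) and GRHL2 (−0.71) down. Of 25 basal and squamous genes, 5 rose (20.0%) and 4 fell (16.0%), which is about the background of all genes, the falls including the basal factor gene TP63 (−1.35) and SOX2 (−0.78). With only the compared groups fitted, or without the first libraries of TRAP1 at 4 h and MS78 at 2 h, 8 basal genes rose. SNAI1, a repressor of epithelial genes, rose among the mesenchymal markers, where 3 of 14 rose and 0 fell, at 5.22, 5.05 and 5.90 CPM with TRAP-1-NegP and 0.0987, 0.437 and 0.830 CPM with DMSO. Of 9 haematopoietic and endothelial markers tested, 1 rose and 2 fell, and the part of marker levels in these results was not tested. Host genes of snoRNAs and other long non-coding RNAs gave 6 rises, SNHG12 (0.71) and SNHG1 (0.67) among them, and 4 falls of 21. Zinc finger genes with ZNF symbols, a large family of repeat-rich repressors, gave 37 rises (8.67%) and 101 falls (23.7%) among 427 (median −0.20). Of all genes 18.6% rose and 18.9% fell. Calls depended on level, and the part of level in the counts of this family was not tested. Near-identical members can share reads.

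Calls depended on level more than on gene length at 4 h. Protein-coding genes were ranked by each property and split into 5 groups of equal size. In the group with the highest mean levels 43.0% rose and 15.4% fell, and in the lowest group 4.38% rose and 7.39% fell, where low counts limit the test. By the length of the longest transcript, 20.2% rose and 15.3% fell in the group with the shortest, and 20.9% rose and 20.0% fell in that with the longest. At 2 h the same compound gave 25.7% rises and 7.12% falls in the group with the shortest transcripts and 7.36% rises and 28.8% falls in that with the longest. The length trend seen at 2 h was thus not repeated at 4 h.

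**Figure D3:**
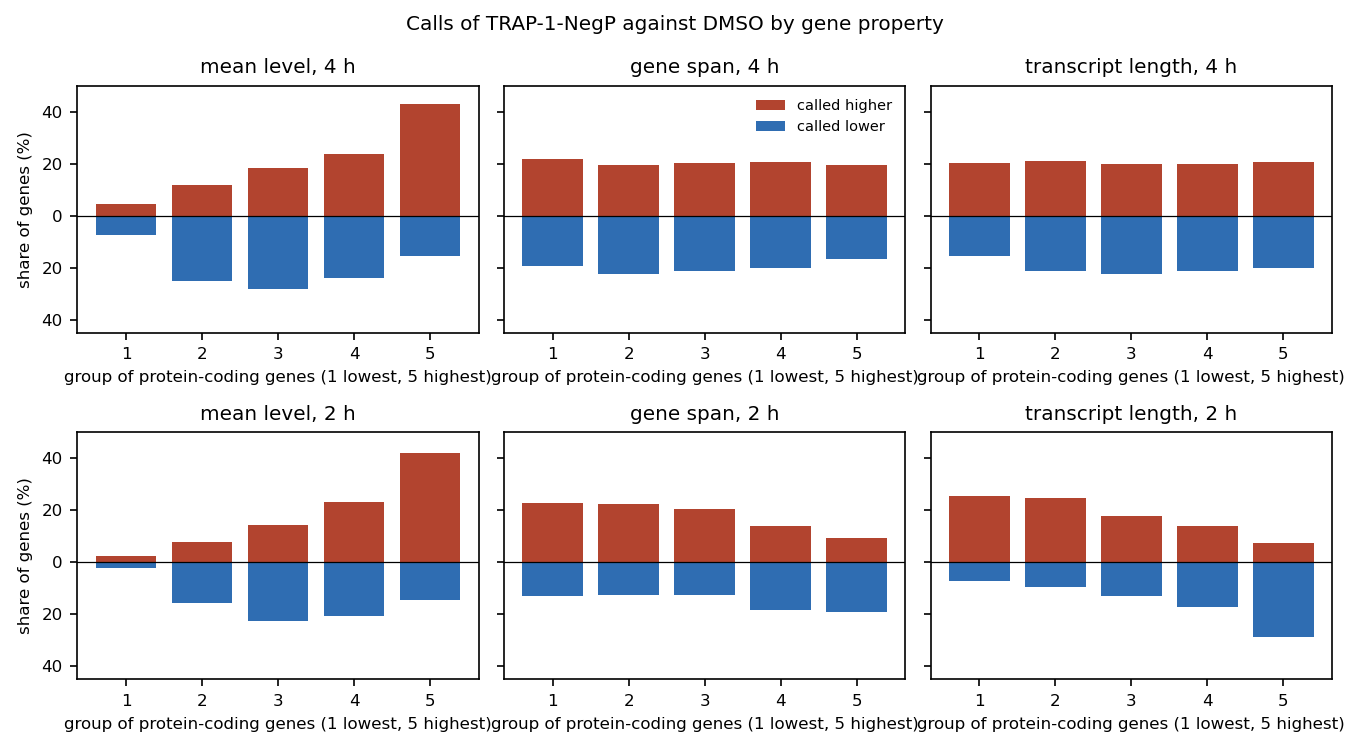
Share of protein-coding genes called higher (up) or lower (down) with TRAP-1-NegP against DMSO, in percent, by groups of mean level, gene span and transcript length, at 4 h above and 2 h below. At 4 h the shares are nearly level over transcript length, and at 2 h rises go down to 7.36% and falls up to 28.8% in the group with the longest transcripts.

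The 2 times rest on separate libraries for compound and vehicle alike. At 2 h, 2462 genes rose (16.4% of those tested) and 2080 fell (13.9%). Of the genes that rose at 4 h, 1229 (44.2%, and 49.9% of those of 2 h) had risen at 2 h, and of those that fell at 4 h, 958 (33.9%, and 46.1% of those of 2 h) had fallen. The change differed between the times in 1642 genes upward (11.0%) and 1834 downward (12.2%), by a test of the difference itself. INSIG1 was at 142, 144 and 140.5 CPM with TRAP-1-NegP and 27.6, 23.0 and 27.2 CPM with DMSO at 2 h, so its change grew by 1.46 ± 0.11 (adjusted p = 1.7e-15) by 4 h. Cholesterol synthesis genes rose in 12 of 21 at 2 h (median 0.24), and 14 had a larger change at 4 h. The change of CDKN1A grew by 1.22 ± 0.069 and that of HEXIM1 by 0.56 ± 0.12. BET inhibitor-induced genes had risen in 17 of 19 at 2 h and histones in 18 of 29. The change was larger at 4 h in 8 and smaller in 1 of the BET inhibitor-induced genes, and larger in 8 and smaller in 0 of the histone genes, against 11.0% and 12.2% of all genes. Interferon genes gave 13 rises and 5 falls at 2 h, with a change that was higher at 4 h in 7 and lower in 14. The count lower was 8 without TRAP-1-NegP replicate 1 of 2 h, and 9 without TRAP-1-NegP replicate 3 or DMSO replicate 1 of 2 h, or without TRAP-1-NegP replicate 2, DMSO replicate 2 or DMSO replicate 3 of 4 h. Ribosome biogenesis genes gave 16 rises and 11 falls at 2 h, and 16 were lower at 4 h. HAS2 was already low at 2 h, with 4.66, 3.27 and 4.25 CPM with TRAP-1-NegP and 54.0, 51.3 and 53.5 CPM with DMSO.

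A smaller set of genes turned round between the times. There were 211 genes higher at 4 h and lower at 2 h, with a median gene span of 84.8 kb against 30.8 kb over all tested genes with a span. Their TRAP-1-NegP libraries were higher at 4 h than at 2 h by a median of 0.45 on the log2 scale, in 209 of 211, and their DMSO libraries changed by a median of −0.41 and were lower at 4 h in 201 of 211. The vehicle libraries therefore moved between the times as well as the treated ones. NOTCH2, a Notch receptor gene, stood at 87.7, 80.4 and 78.7 CPM with TRAP-1-NegP and 58.3, 50.9 and 56.1 CPM with DMSO at 4 h. At 2 h it was at 44.7, 51.3 and 44.9 CPM with TRAP-1-NegP and 90.8, 87.5 and 82.9 CPM with DMSO. There were 162 genes lower at 4 h and higher at 2 h, with a median span of 23.9 kb; in them TRAP-1-NegP libraries changed by a median of −0.58 and DMSO libraries by 0.27 at 4 h relative to 2 h. IFI44 was of this kind (−0.81 at 4 h and 0.47 at 2 h), as was GAR1 (−1.05 at 4 h and 0.38 at 2 h). These groups were formed from the calls, so their direction is a description.

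**Figure D4:**
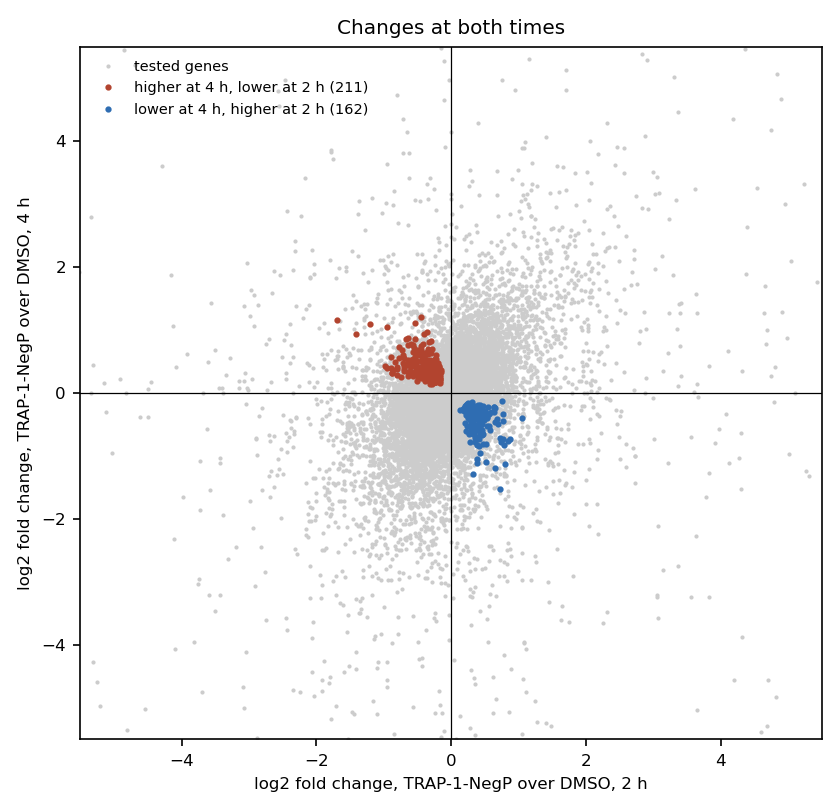
Log2 fold change of TRAP-1-NegP over DMSO at 2 h (horizontal) and 4 h (vertical) for tested genes, with the 211 genes higher at 4 h and lower at 2 h in red and the 162 genes with the opposite pattern in blue. Genes in the upper right and lower left changed in the same direction at both times; points beyond the axes are not drawn.

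TRAP-1-NegP was set beside 3 other compounds at the same dose and time. These comparisons share the TRAP-1-NegP libraries with one another and with the comparison to DMSO, so they are not independent. The p-values were adjusted over genes within each comparison.

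Against JQ1, 1926 genes were higher with TRAP-1-NegP and 1926 lower (12.9% of tested genes each), 194 of them by at least 2-fold (1.29%). INSIG1 was the gene of the sterol list that differed most among those described, at 362, 396 and 369 CPM with TRAP-1-NegP and 118, 120.5 and 123 CPM with JQ1 (1.64 ± 0.071, adjusted p = 5.9e-25). Cholesterol synthesis genes were higher with TRAP-1-NegP in 15 of 21 and lower in 0, with a median of 0.45, against 0.84 for TRAP-1-NegP over DMSO. HMGCS1 differed by 0.95 ± 0.079. ALKBH4 (2.48), DOK7 (2.03), ANKRD65 (1.67) and the lactate receptor gene HCAR1 (1.67) were also higher with TRAP-1-NegP than with JQ1. ALKBH4 stood at 2.86, 4.96 and 2.83 CPM with TRAP-1-NegP and 0.272, 0.971 and 0.648 CPM with JQ1, and both were below the DMSO libraries at 19.9, 21.8 and 21.9 CPM. KCNQ1OT1 (−1.71), CEP85L (−1.39), KBTBD8 (−1.35) and C2orf69 (−1.16) were lower.

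The genes that mark BET inhibition were lower with TRAP-1-NegP than with JQ1 or did not pass the test. HEXIM1 was at 203, 188 and 183 CPM with TRAP-1-NegP and 232, 240.3 and 246 CPM with JQ1 (−0.33 ± 0.079, adjusted p = 0.0015). BRD2 differed by −0.11 ± 0.047 (adjusted p = 0.077; 95% interval −0.20 to −0.02) and CDKN1A by −0.05 ± 0.048 (adjusted p = 0.47; 95% interval −0.15 to 0.04), so that larger differences than these bounds fall outside the intervals. Of BET inhibitor-induced genes 0 of 19 were higher and 7 lower, or 4 lower without JQ1 replicate 1. HAS2 differed by 0.84 ± 0.46 (adjusted p = 0.19; 95% interval −0.11 to 1.79), an interval wide enough to hold changes of 2-fold. Unfolded protein response genes were lower in 12 of 30 and higher in 1. Ribosomal protein genes were higher in 68 of 78 and lower in 1, with a median of 0.31.

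Against TRAP1, 1213 genes were higher with TRAP-1-NegP (8.09%) and 1087 lower (7.25%), or 862 and 846 without the TRAP1 library that stood apart. Genes of the DNA damage response were among those that differed. CDKN1A stood at 674, 689 and 674 CPM with TRAP-1-NegP and 7556, 7718 and 8007 CPM with TRAP1 (−3.51 ± 0.052, adjusted p = 1.2e-48), or −3.53 without that library. GDF15 had 17, 20.2 and 16.9 CPM with TRAP-1-NegP and 241, 274 and 282 CPM with TRAP1 (−3.88 ± 0.16), and MDM2 22.1, 22.3 and 23.6 CPM with TRAP-1-NegP and 70.8, 77.7 and 75.0 CPM with TRAP1 (−1.72 ± 0.12). The groups did not overlap in any of these genes. TP53INP1 differed by −4.84 ± 0.33, BBC3 by −1.77 ± 0.31 and FAS by −1.21 ± 0.20. Without that library the differences were −3.94 for GDF15, −1.75 for MDM2, −4.84 for TP53INP1, −1.98 for BBC3 and −1.01 for FAS, each still called. Of arrest genes 12 of 13 were lower and 0 higher with TRAP-1-NegP, and of the damage response genes of feedback, repair and metabolism 21 of 35 were lower and 0 higher; without the TRAP1 library the counts lower were 12 and 20.

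Mitotic genes lay the other way, with 25 of 36 G2/M genes higher and 1 lower with TRAP-1-NegP than with TRAP1, or 23 and 1 without that library. HJURP, which loads the centromeric histone, stood at 70.4, 66.2 and 60.8 CPM with TRAP-1-NegP and 24.2, 26.9 and 20.2 CPM with TRAP1 (1.47 ± 0.091, or 1.48 without that library). Ribosomal protein genes were lower with TRAP-1-NegP in 39 of 78 and higher in 0, or 38 and 0 without the library. INSIG1 was higher with TRAP-1-NegP (0.51 ± 0.069, adjusted p = 1.0e-07), as was HMGCS1 (0.49), and 6 of 21 cholesterol synthesis genes were higher and 1 lower, or 6 and 0 without the library. HEXIM1 was lower (−0.39 ± 0.079, adjusted p = 2.5e-04), and BRD2 differed by −0.10 ± 0.047 (adjusted p = 0.14; 95% interval −0.20 to −0.01). HAS2 differed by 0.42 ± 0.43 (adjusted p = 0.60; 95% interval −0.47 to 1.30). Without the library the differences were 0.55 for INSIG1, 0.47 for HMGCS1, −0.38 for HEXIM1, −0.08 for BRD2 and 0.16 for HAS2, and those of BRD2 and HAS2 again did not pass the test.

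Against TRAP-1-NegB, 2670 genes were higher with TRAP-1-NegP (17.8%) and 2805 lower (18.7%), 1197 of them by at least 2-fold (7.99% of tested genes). BET inhibitor-induced genes were higher with TRAP-1-NegP in 16 of 19 and lower in 0, and histone genes in 17 of 29 and 0. HEXIM1 stood at 203, 188 and 183 CPM with TRAP-1-NegP and 65.9, 75.5 and 64.5 CPM with TRAP-1-NegB (1.48 ± 0.082). HAS2 was at 3.32, 0.581 and 0.843 CPM with TRAP-1-NegP and 60.0, 54.9 and 49.6 CPM with TRAP-1-NegB (−5.11 ± 0.29). Neither gene had overlapping groups. The sterol genes differed too, though TRAP-1-NegB lay nearer to TRAP-1-NegP there: INSIG1 was at 87.5, 78.7 and 80.2 CPM with TRAP-1-NegB (2.19 ± 0.073), HMGCS1 at 209 ± 11.0 CPM with TRAP-1-NegP and 136 ± 3.15 CPM with TRAP-1-NegB (SD, n = 3 each; 0.62 ± 0.078), and 14 of 21 cholesterol synthesis genes were higher and 0 lower. CYP1B1, a cytochrome P450 gene switched on by the aryl hydrocarbon receptor, had 3.37, 4.38 and 4.15 CPM with TRAP-1-NegP and 149, 142 and 146 CPM with TRAP-1-NegB (−5.20 ± 0.18), and its fellow target CYP1A1 differed by −3.87 ± 0.26.

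**Figure D5:**
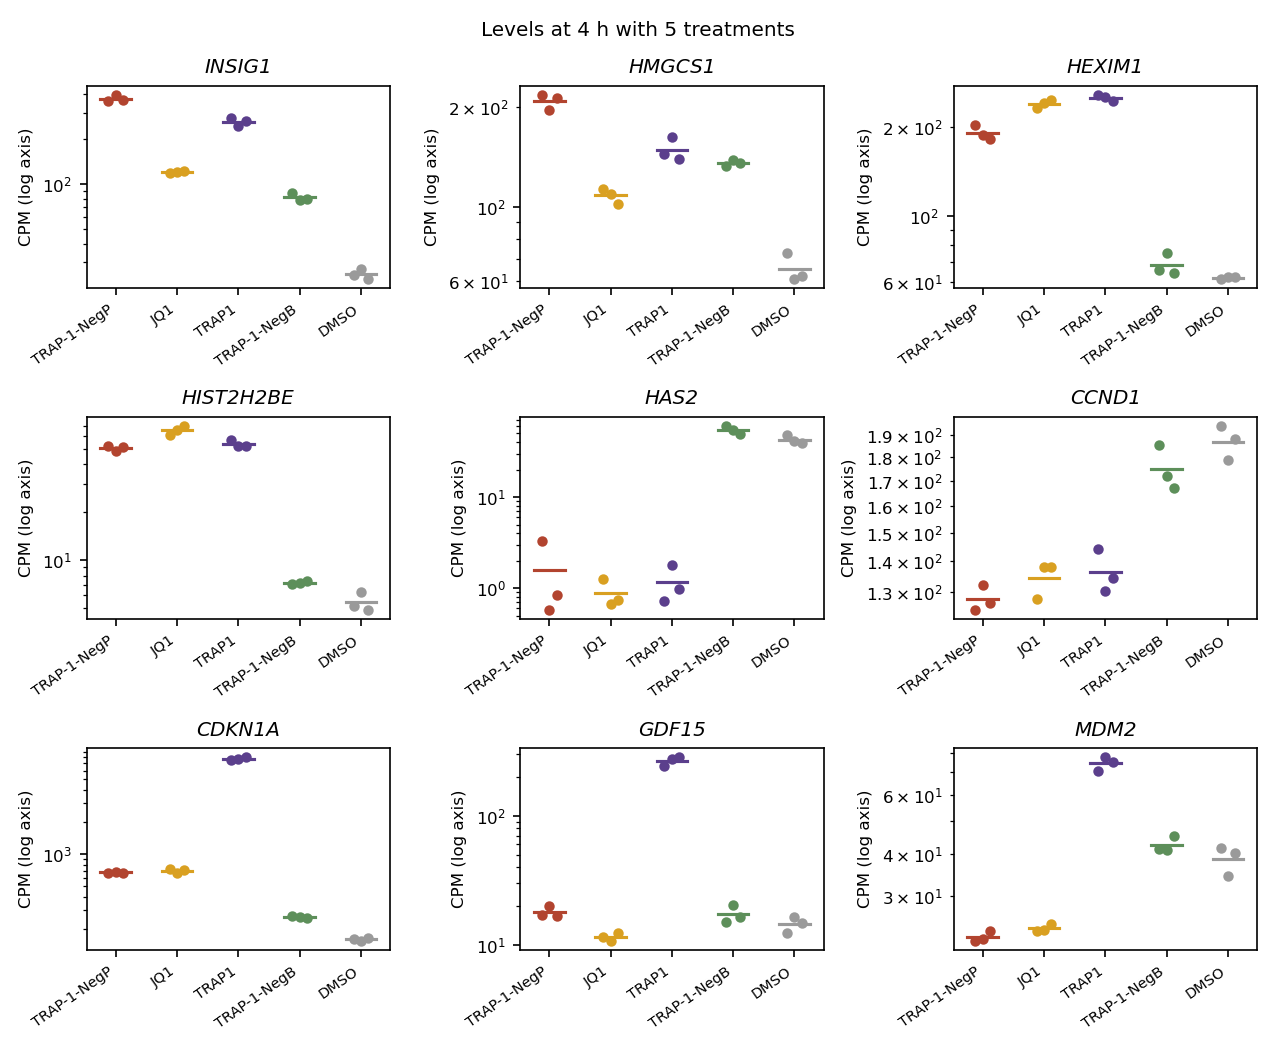
Levels of 9 genes at 4 h in CPM on log axes, by treatment, with points for libraries and bars for means of 3. TRAP-1-NegP, JQ1 and TRAP1 lie together and away from TRAP-1-NegB and DMSO for HEXIM1, HIST2H2BE, HAS2 and CCND1. TRAP1 is the highest for CDKN1A, GDF15 and MDM2, though CDKN1A is also higher with TRAP-1-NegP than with DMSO. TRAP-1-NegP is highest for INSIG1 and HMGCS1.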

How the data were processed

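PolyA-selected RNA of BxPC-3 cells was sequenced with paired reads of 150 bases. Per the labels' protocols, the authors quantified genes with Salmon 1.10.3 in nf-core/rnaseq 3.18.0; hg38 is the build named in the submitters' processing notes, while annotation release and strand setting are not given in the sources used here. Of the deposited tables, those used hold the authors' estimated counts, not normalized, and length-scaled estimated counts; the authors' deposited TPM values served for cell markers. The 36 columns were matched to samples by name.

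Estimated counts were rounded and fitted with edgeR 4.0.16 under R 4.3.3: filterByExpr (minimum count 10, 12 groups), TMM, robust glmQLFit on all 36 libraries and two-sided glmQLFTest, with Benjamini-Hochberg adjustment within each of 6 comparisons. The common biological coefficient of variation was 0.135. The SE is the log2 fold change divided by the root of F and covers counting error and replicate spread together. Named genes were the 15 largest rises and falls past an adjusted p of 0.05 with a mean of at least 5 CPM and groups that did not overlap, the 5 largest of each other comparison, up to 6 members per direction of each list by adjusted p, and a fixed panel. The members, panel and 46 lists were chosen with earlier results of these data known. Genes in the account of both times were taken from this rule. The replicate numbers were not used to pair libraries in the main fit. Alternatives changed 1 choice at a time, except that the fit of the compared groups alone also filtered genes anew: DESeq2 1.42.0 size factors and Wald test, a fit of the compared groups alone, other count filters, a replicate block, length-scaled estimated counts, single libraries left out, and 2 added after the data were seen. The procedure was tested on simulated data. Some genes are not reported here. Gene spans came from GENCODE 29 (13444 genes), promoters from RefSeq, and figures from matplotlib 3.10.9.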

Additional observations from a re-analysis of the deposited data

Results flagged for a closer look

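Each result here is a difference between the times: the change of TRAP-1-NegP over DMSO at 4 h minus that at 2 h, on the log2 scale, tested as an interaction in edgeR, with none weighed further. The difference was positive in 1642 genes and negative in 1834. Of the genes named for its size, the difference was 2.36 for LOC100271836, 2.31 for NIPAL1, 2.18 for TFCP2L1, 2.05 for FAM63B and 2.03 for NEU3, a sialidase gene. It was −4.94 for LDLRAD2, −2.88 for GLI2, a Hedgehog pathway factor, −2.65 for LOC101928589, −2.30 for SH3TC1 and −2.22 for LOC102723728.

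LDLRAD2 stood at 4.22, 5.54 and 4.15 CPM with TRAP-1-NegP and 7.55, 6.45 and 7.76 CPM with DMSO at 4 h, and at 8.90, 5.58 and 12.9 CPM with TRAP-1-NegP and 0.180, 0.294 and 0.917 CPM with DMSO at 2 h. GLI2 stood at 0.452, 1.65 and 1.56 CPM with TRAP-1-NegP and 8.29, 9.18 and 8.0 CPM with DMSO at 4 h, and at 8.66, 4.94 and 5.96 CPM with TRAP-1-NegP and 5.77, 6.38 and 6.28 CPM with DMSO at 2 h.

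Of the fixed panel, the difference was 1.22 for CDKN1A, 0.56 for HEXIM1, 0.71 for BRD2, 0.84 for BRD3, 1.46 for INSIG1, 1.16 for HMGCS1 and −0.52 for CCND1. Thus the changes of these genes were more positive at 4 h except that of CCND1, which was −0.55 at 4 h and −0.03 at 2 h.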

How the results depend on the processing

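No named gene with a call changed direction under any alternative run. Rises and falls were near even in number, and in each of the 6 comparisons the direction with more calls depended on the setting; against DMSO at 2 h it was 2462 rises and 2080 falls, or 2157 and 2335 with no count filter. Against DMSO at 4 h the list medians that crossed 0 under some setting were those of the MYC network (−0.19 to 0.22), sterol efflux (−0.18 to 0.30), BCL2 family (−0.09 to 0.04), G1/S, G2/M and snoRNA host lists. Against DMSO at 4 h, 2713 to 3096 genes rose and 2745 to 3158 fell over the settings that kept all 6 libraries, and 2440 to 2507 rose and 2443 to 2583 fell with 1 library left out. Of 391 genes named in that comparison, 46 lost their call without some single library and 8 under another setting, and GDF15 gained one with no count filter. Against TRAP1, 764 genes were higher with TRAP-1-NegP when only the compared groups were fitted, where fewer genes were tested, against 1213; the share of higher calls was then 40.5% against 52.7%. Against JQ1, 1276 genes were lower after correction for transcript length and GC content, an alternative chosen after the data were seen, against 1926; the cause was not tested. The other added alternative, also chosen after the data were seen, left out the first libraries of TRAP1 at 4 h and MS78 at 2 h. On the first component that MS78 library lay at −23.0, with the others of its group at −22.7 and −23.0.

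Deviations of same-numbered TRAP-1-NegP and DMSO libraries of 4 h correlated at −0.00060, 0.017 and 0.0012. All tested genes counted equally in this measure, low ones included, so it cannot show that the libraries were unpaired. With a replicate block, 2741 genes rose and 2795 fell against DMSO at 4 h, and no count in the 6 comparisons moved by over 1.5 times. No scaling moved the median of all genes by over 0.1. Depth limits the calls of low genes, the group with the lowest levels giving the fewest. LUM and BCL2A1, at 0 in the DMSO libraries, are not given a fold.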
